A study of Mus musculus with 6 samples.

Results

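The 10 genes Il6, Cxcl1, Cxcl5, Cxcl10, Cxcl12, Cxcl14, Cxcl15, Ccl2, Ccl7 and Ccl20 encode secreted cytokines and chemokines that are counted among the senescence-associated secretory phenotype (SASP). They were taken by symbol from a table of 55487 mouse genes, and all 10 passed the low-count filter, as did 16962 genes in all. The RNA came from MEFs (embryonic fibroblasts of wild-type mice), primary cells that stop dividing after repeated replating. The groups were senescent cells at passage 6 (P6) given 20 µM α-amyrin, 20 µM β-amyrin or vehicle for 3 days, and non-senescent cells at passage 1 (P1) given the same. Each of these 6 conditions had 1 library, and the labels do not say whether the P6 cells descend from the P1 cells, which embryos gave them, or what the vehicle was. α-Amyrin and β-amyrin are isomeric plant triterpenes of the ursane and oleanane type, which carry 1 methyl group of ring E on different carbons.

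Senescent cells stop dividing but go on secreting cytokines, growth factors and proteases. Transcription of many of these secreted factors depends on NF-κB and C/EBPβ, often downstream of interleukin-1. Chemokines then draw in cells that carry the matching receptor. CXC ligands such as those of Cxcl1 and Cxcl5 attract neutrophils through CXCR2, and CC ligands such as those of Ccl2 and Ccl7 attract monocytes through CCR2. Interleukin-6 acts on cells through its own receptor and the shared signalling chain gp130.

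Total counts per library lay between 18798418 and 28752332. The senescence marker Cdkn2a encodes p16 and ARF, whose transcripts a count per gene does not separate. It had 116, 115 and 115 CPM (read counts adjusted for library size) in the α-amyrin, β-amyrin and vehicle libraries at P6. At P1 it had 17.2, 17.4 and 19.4 CPM. Cdkn1a, which encodes the cell-cycle inhibitor p21, was not called (log2 fold change 0.01, edgeR adjusted p = 0.922). The proliferation marker Mki67 had 77.7 to 96.1 CPM at P6, against 165 to 170 CPM at P1, and the nuclear lamina gene Lmnb1, which senescent cells are known to lose, had 21.9 to 26.2 CPM at P6, against 90.7 to 104 CPM at P1. Of 11 fibroblast markers 8 fell, 1 rose and 2 were not called by edgeR, beside 29.1% of all genes called lower and 30.0% called higher at P6. The growth factor receptor gene Pdgfra fell by 2.46 and the matrix gene Dcn by 1.88 on the log2 scale, while the collagen gene Col1a1, which also fell, by 0.29, had 9338 to 12622 CPM at P6, against 11859 to 15011 CPM at P1. Macrophage markers were not at 0: the 20 markers summed to 6423, 4589 and 6283 CPM in the α-amyrin, β-amyrin and vehicle libraries at P6, against 401, 54.3 and 461 CPM at P1. The 6 mesothelial markers summed to 2.58 to 3.42 CPM at P6, against 150.2 to 188 CPM at P1. The T cell markers Cd3e and Cd3d were at 0 in all 6 libraries. In bulk RNA, fewer cells of a type and less RNA per cell cannot be told apart.

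On the length-scaled FPKM values that the authors deposited, the 10 genes differed widely in level. The RNAs of Cxcl14, Cxcl12, Ccl2 and Ccl7 made up 88.8% to 91.9% of the summed FPKM of the 10 genes at P6, against 91.5% to 95.4% at P1. Cxcl14, a chemokine of epithelia and stroma, averaged 121 ± 33.3 FPKM at P6 and 87.8 ± 11.8 FPKM at P1 (SD, n = 3 libraries each). Cxcl12, the stromal ligand of CXCR4, averaged 73.6 ± 3.11 FPKM at P6 and 63.6 ± 4.15 FPKM at P1. The monocyte attractants came next: Ccl7 averaged 52.3 ± 3.81 FPKM at P6 and 48.6 ± 2.55 FPKM at P1, and Ccl2 averaged 41.1 ± 2.35 FPKM at P6 and 58.4 ± 5.35 FPKM at P1.

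At P6 the order of FPKM levels ran Cxcl14, Cxcl12, Ccl7, Ccl2, Cxcl5, Cxcl15, Cxcl1, Ccl20, Il6 and Cxcl10. Neighbours in that order whose 3 libraries overlapped were Cxcl5 with Cxcl15, Cxcl1 with Ccl20, and Il6 with Cxcl10. At P1 the order ran Cxcl14, Cxcl12, Ccl2, Ccl7, Cxcl5, Cxcl1, Cxcl10, Ccl20, Cxcl15 and Il6. There Cxcl12 overlapped Ccl2, and from Cxcl1 down each gene overlapped the next. Cxcl15 ranked 6 at P6 and 9 at P1, and its share of the summed FPKM was 3.10% to 4.08% at P6, against 0.114% to 0.203% at P1. Il6, the best known SASP cytokine, stayed at 0.189 to 0.539 FPKM at P6 and 0.347 to 0.438 FPKM at P1.

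**Figure D1:**
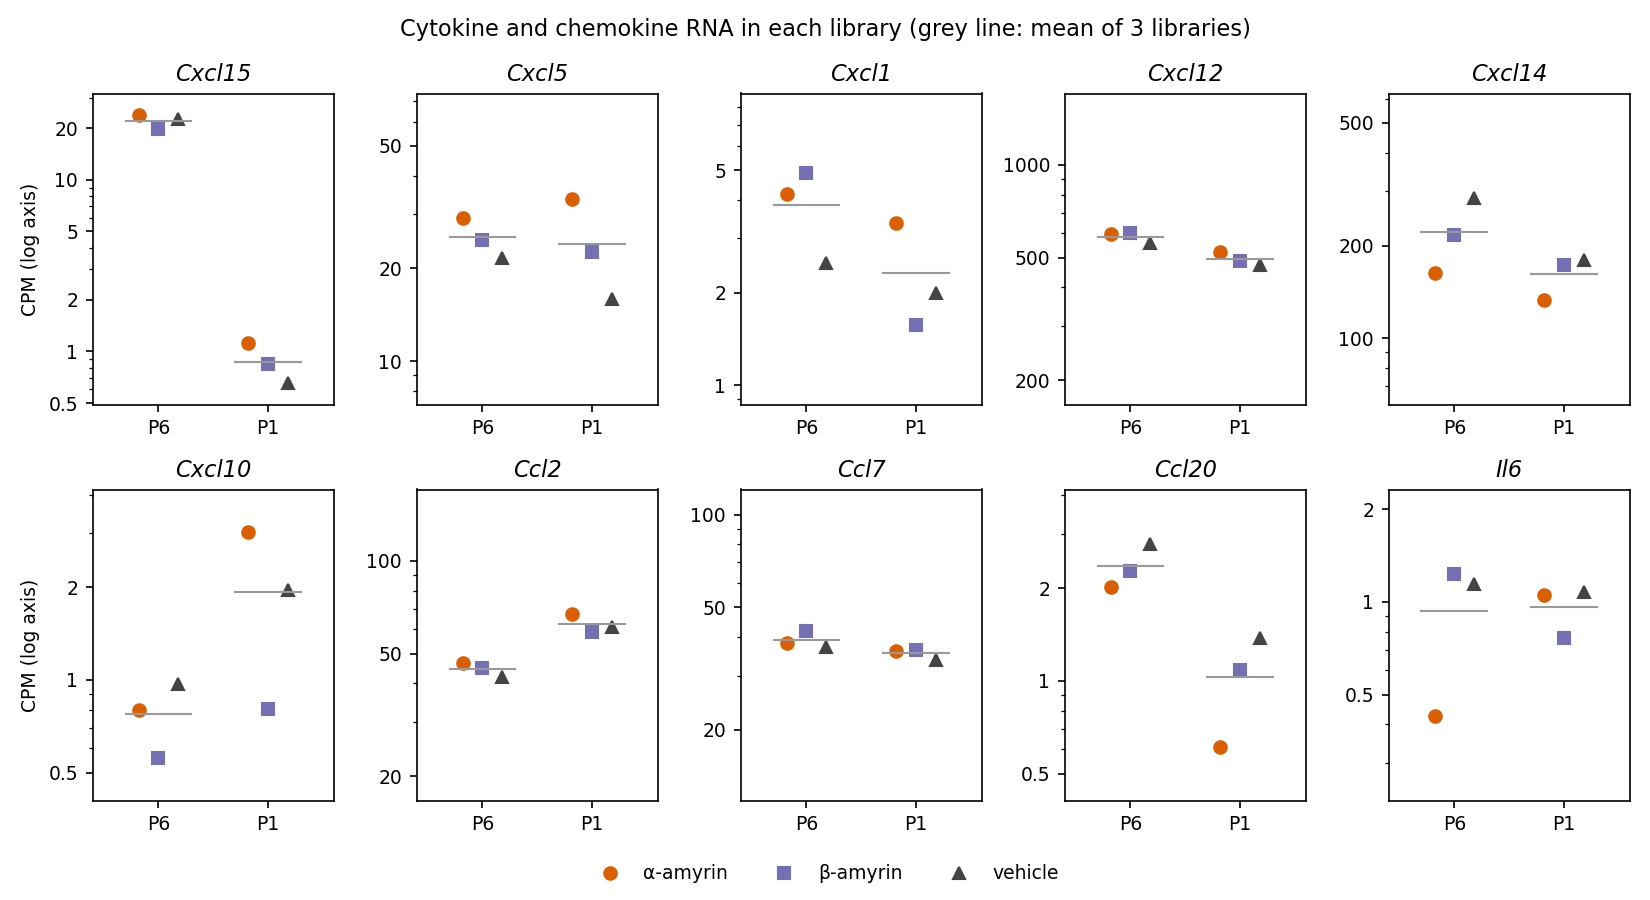
CPM of each gene in the 3 P6 libraries and the 3 P1 libraries, on log axes whose range differs between panels. Each point is 1 library, its shape gives the treatment, and the grey line is the mean of the 3 libraries of a passage, such as 22.1 CPM at P6 and 0.873 CPM at P1 for Cxcl15.

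The first comparison set P6 against P1 in an additive model of passage and treatment. By edgeR's quasi-likelihood test with Benjamini-Hochberg adjustment over all genes tested, 4 of the 10 genes rose (Cxcl15, Ccl20, Cxcl14 and Cxcl12), 2 fell (Ccl2 and Cxcl10) and 4 were not called. Over all genes 59.2% were called, 30.0% higher and 29.1% lower, so 6 calls among 10 genes lie near the background. The 10 genes had a median log2 fold change of 0.19, beside 0.00 over all genes tested. What follows therefore describes single genes, and no shift of the group as a whole. The 3 libraries of a passage stood in for replicates, although each had a different treatment. Spread among them that the treatment term takes up is not part of the error. The p-values rest on departures from the additive model (2 residual degrees of freedom), with 4.83 prior degrees of freedom added. They do not measure variation between repeated cultures of the same condition.

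Cxcl15 encodes the chemokine lungkine, a CXC ligand with the neutrophil-attracting ELR motif that is best known from mouse lung epithelium. It had 23.8, 19.8 and 22.7 CPM in the α-amyrin, β-amyrin and vehicle libraries at P6 (449, 498 and 536 counts), against 1.12, 0.844 and 0.652 CPM at P1 (33, 21 and 17 counts). All P6 libraries were high and all P1 libraries low, with no overlap. The log2 fold change was 4.65 ± 0.15 (SE), or 25.1-fold, with an edgeR adjusted p of 2.95e-06. Every alternative called it, with adjusted p between 7.68e-74 (DESeq2) and 0.000125 (limma). Log2 fold changes ran from 4.45 to 4.82 in the fits on counts. The value was 3.07 by limma on log2(FPKM + 1), where the P1 values of 0.311 to 0.572 FPKM lay below the added 1. In single pairs of libraries the log2 ratio was 4.31 with α-amyrin, 4.43 with β-amyrin and 4.96 with vehicle. Of the 10 genes it alone met the size rule of 2-fold and at least 5 CPM in 1 library in each of these pairs, which 9.69%, 9.56% and 9.44% of all genes met. Macrophage markers were also higher at P6. Within P1 the β-amyrin library, lowest in macrophage markers, had 0.844 CPM of Cxcl15, between the other P1 libraries, but P1 values rested on 17 to 33 counts. Within P6 the β-amyrin library was lowest both in summed macrophage markers and in Cxcl15, at 19.8 CPM. The part of macrophages in the Cxcl15 result was not tested.

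Cxcl1 and Cxcl5, both ligands of the neutrophil receptor CXCR2, lie in the same cluster and were not called. Cxcl1 had 4.19, 4.89 and 2.50 CPM in the α-amyrin, β-amyrin and vehicle libraries at P6, against 3.36, 1.57 and 1.99 CPM at P1. The P6 vehicle library was lower than the P1 α-amyrin library, so the passages overlapped. Its log2 fold change was 0.75 ± 0.28 (SE, edgeR adjusted p = 0.0552), and the alternatives gave adjusted p between 0.00431 and 0.295. It was called by 1 of 12 alternatives, the fit without a low-count filter. Cxcl5 had 29.3, 24.8 and 21.7 CPM at P6, against 33.6, 22.6 and 15.9 CPM at P1. Here the treatments were spread more widely than the passages, and the log2 fold change was 0.12 ± 0.12 (SE, edgeR adjusted p = 0.425), with alternatives from 0.0690 to 0.832.

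**Figure D2:**
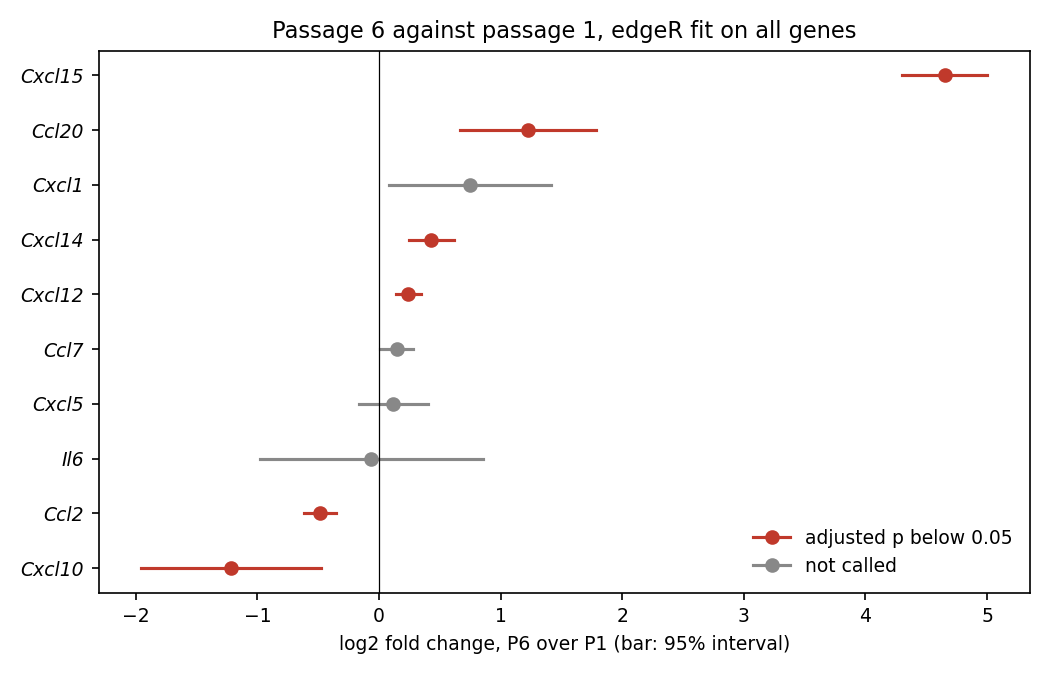
Log2 fold change of each gene, P6 over P1, from the edgeR fit on all genes, with 95% intervals over 3 libraries of each passage. Cxcl15 stands at 4.65, and 6 genes in red had an adjusted p below 0.05.

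The 3 genes share a stretch of mouse chromosome 5 (build mm10) that holds the ELR-type CXC chemokine genes. Cxcl5 lies at chr5:90759360-90761624, Cxcl15 at chr5:90794534-90803067 and Cxcl1 at chr5:90891241-90893115, all on the plus strand. Between Cxcl5 and Cxcl15 are 32.9 kb, and between Cxcl15 and Cxcl1 are 88.2 kb. The other tested CXC genes of the cluster rose at P6 by edgeR: Ppbp by 1.45 ± 0.21, Pf4 by 2.65 ± 0.35 and Cxcl2 by 3.64 ± 0.36 (log2 values with SE; adjusted p = 0.00105, 0.000616 and 0.000171). Ppbp and Pf4 are platelet chemokines, and Cxcl2 is a further CXCR2 ligand that macrophages make. Cxcl2 had 1.59, 1.27 and 2.41 CPM in the α-amyrin, β-amyrin and vehicle libraries at P6, against 0.0680, 0.121 and 0.230 CPM at P1, where each rested on 2 to 6 counts. All 3 P1 libraries were under the filter level of 0.396 CPM, so Cxcl2 had to be higher at P6 to be tested. Pf4 had its lowest value of each passage in the β-amyrin library, 2.98 CPM at P6 and 0.121 CPM at P1. Ppbp was lowest there at P6 (7.16 CPM) but highest there at P1 (3.70 CPM). The nearest genes outside the chemokines, Rassf6 on the Cxcl5 side and Mthfd2l on the Cxcl2 side, had log2 fold changes of -0.30 and -0.14 and were not called (edgeR adjusted p = 0.129 and 0.203).

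**Figure D3:**
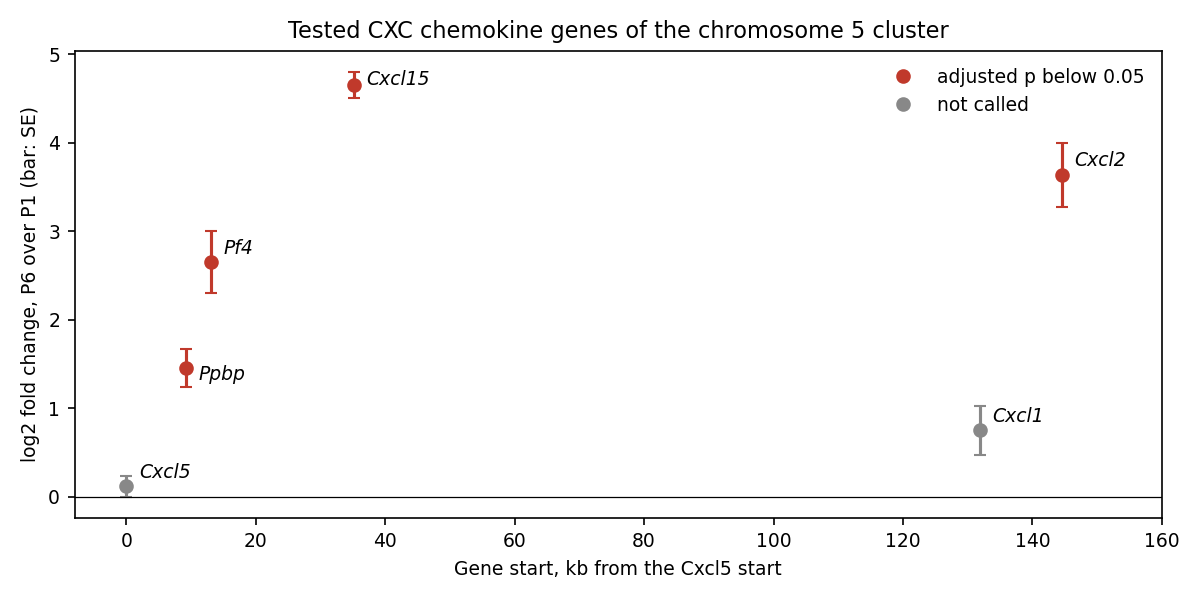
Log2 fold change (P6 over P1, with SE) of the 6 tested CXC chemokine genes of the chromosome 5 cluster, plotted at the distance of each gene's start from that of Cxcl5. Cxcl5 (0.12) and Cxcl1 (0.75) were not called, while Ppbp, Pf4, Cxcl15 and Cxcl2 were called higher.

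Promoter sequence was available from RefSeq (build GRCm38.p6, the same as mm10) for 7 of the 10 genes. Cxcl5, Ccl2 and Ccl7 had no entry. The 250 bases before the RefSeq start are shown for the neighbours Cxcl15 and Cxcl1, which differed in their passage change, and for Ccl20, Cxcl10 and Il6. Capitals mark matches on either strand to 5 short motifs: an NF-κB-like and an interferon-response-like motif of 10 letters each, seen in capitals below, the AP-1 motif TGANTCA, the C/EBP-like motif TTNNGCAA, and a TATA box, which was searched as TATAAA. Of 32851 promoter entries of that length, 4.65% held the NF-κB-like motif, 12.4% the TATA box, 6.75% the AP-1 motif, 9.56% the C/EBP-like motif and 2.98% the interferon-response-like motif.
Cxcl15: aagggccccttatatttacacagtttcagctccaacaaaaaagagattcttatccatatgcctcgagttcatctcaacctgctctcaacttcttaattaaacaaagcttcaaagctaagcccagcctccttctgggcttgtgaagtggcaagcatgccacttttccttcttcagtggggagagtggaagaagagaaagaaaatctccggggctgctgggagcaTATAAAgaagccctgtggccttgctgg
Cxcl1: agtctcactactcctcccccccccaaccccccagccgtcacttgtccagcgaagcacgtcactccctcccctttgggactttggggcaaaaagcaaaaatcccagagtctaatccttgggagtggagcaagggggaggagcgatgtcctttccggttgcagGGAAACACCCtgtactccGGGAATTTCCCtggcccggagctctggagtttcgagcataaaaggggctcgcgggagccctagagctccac
Ccl20: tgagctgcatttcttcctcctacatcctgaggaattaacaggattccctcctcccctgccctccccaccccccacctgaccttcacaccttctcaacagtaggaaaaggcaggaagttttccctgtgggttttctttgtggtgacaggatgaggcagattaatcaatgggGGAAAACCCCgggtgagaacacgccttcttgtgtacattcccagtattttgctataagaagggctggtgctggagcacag
Cxcl10: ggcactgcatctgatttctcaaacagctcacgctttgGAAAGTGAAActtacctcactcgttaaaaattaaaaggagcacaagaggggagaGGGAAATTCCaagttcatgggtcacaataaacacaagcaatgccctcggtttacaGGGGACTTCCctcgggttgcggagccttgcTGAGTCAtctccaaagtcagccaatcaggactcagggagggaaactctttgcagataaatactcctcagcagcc
Il6: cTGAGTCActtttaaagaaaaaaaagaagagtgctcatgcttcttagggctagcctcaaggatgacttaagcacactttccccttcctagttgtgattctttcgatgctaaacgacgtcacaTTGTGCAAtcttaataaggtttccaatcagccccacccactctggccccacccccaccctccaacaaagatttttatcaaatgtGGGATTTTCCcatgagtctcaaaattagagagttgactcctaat
These windows are chr5:90794284-90794533 for Cxcl15, chr5:90890995-90891244 for Cxcl1, chr1:83116516-83116765 for Ccl20 and chr5:30012864-30013113 for Il6, all plus strand, and chr5:92348890-92349139 on the minus strand for Cxcl10. RefSeq starts Cxcl1 a few bases downstream of the gene start given above, and its window and distances are counted from the RefSeq start. The Cxcl15 window held the TATA box, starting 27 bases before the start, and no match to the other motifs. The Cxcl1 window held NF-κB-like matches starting 89, 71 and 70 bases before the start, of which the last pair overlap. Ccl20 had 1 NF-κB-like match, at 80 bases, and Il6 had 1 at 44 bases, with a C/EBP-like match at 128 and an AP-1 match at 249. Cxcl10 had NF-κB-like matches at 159 and 104 bases, AP-1 at 74 and the interferon-response-like motif at 213. A match describes letters and is not a binding site, and no match says only that the letters are not in this window. Of the genes with an NF-κB-like match, Ccl20 rose, Cxcl10 fell, and Cxcl1 and Il6 were not called.

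Ccl20, the ligand of CCR6 that attracts dendritic cells and Th17 lymphocytes, had 2.02, 2.27 and 2.79 CPM in the α-amyrin, β-amyrin and vehicle libraries at P6, against 0.612, 1.09 and 1.38 CPM at P1. All P6 libraries were above all P1 libraries, and in both passages vehicle was highest and α-amyrin lowest. The log2 fold change was 1.22 ± 0.23 (SE, edgeR adjusted p = 0.00376), or 2.33-fold, and all 12 alternatives called it (adjusted p from 8.28e-05 to 0.0212). Its counts were low, at 18 to 66 per library, and its gene lies at chr1:83116766-83119167 on the plus strand. Cxcl12, at chr6:117168535-117181367 on the plus strand, had 598, 599 and 556 CPM at P6, against 522, 488 and 474 CPM at P1. The passages did not overlap, yet the change was 0.24 ± 0.04 on the log2 scale, or 1.18-fold (SE, edgeR adjusted p = 0.00248, alternatives 4.99e-05 to 0.0189). The SD over the 3 libraries of a passage was 24.4 CPM at P6 and 24.7 CPM at P1.

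Cxcl14 had 162, 216 and 286 CPM in the α-amyrin, β-amyrin and vehicle libraries at P6, against 133, 172 and 179 CPM at P1. The passages overlapped, since the P6 α-amyrin library lay below the β-amyrin and vehicle libraries at P1. Within each treatment P6 was higher, and the log2 fold change was 0.43 ± 0.08 (SE, edgeR adjusted p = 0.00290, alternatives 8.01e-07 to 0.0692). With treatment left out of the model the call was lost, at an edgeR adjusted p of 0.0692. Its gene lies at chr13:56288643-56296551 on the minus strand.

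Ccl2 and Ccl7 encode MCP-1 and MCP-3, which both bind the monocyte receptor CCR2. They are next to each other on chromosome 11, at chr11:82035571-82037453 and chr11:82045712-82047525, with 8.26 kb between them. Ccl2 fell: it had 46.5, 45.0 and 42.1 CPM in the α-amyrin, β-amyrin and vehicle libraries at P6, against 67.5, 58.9 and 60.8 CPM at P1. The passages did not overlap, and the log2 fold change was -0.48 ± 0.06 (SE, edgeR adjusted p = 0.000349, alternatives 1.81e-07 to 0.00407). Ccl7 had 38.4, 42.0 and 37.2 CPM at P6, against 36.1, 36.4 and 33.8 CPM at P1. These libraries did not overlap either, but the log2 fold change of 0.14 ± 0.06 was not called (SE, edgeR adjusted p = 0.0652, alternatives 0.0703 to 0.324). Counts of Ccl2 over counts of Ccl7 were thus 1.21, 1.07 and 1.13 at P6, against 1.87, 1.62 and 1.80 at P1. In all, 5 of the 10 genes had P6 and P1 libraries that did not overlap (Cxcl12, Cxcl15, Ccl2, Ccl7 and Ccl20), beside 64.7% of all genes tested. The third tested gene of that cluster, the monocyte attractant Ccl12, had a log2 fold change of 1.497 ± 0.59 and was not called (SE, adjusted p = 0.0645 by edgeR).

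Cxcl10 encodes an interferon-induced ligand of CXCR3 on T cells and was low throughout. Its gene lies at chr5:92346638-92348889 on the minus strand, and that of Il6 at chr5:30013114-30019981 on the plus strand. Cxcl10 had 0.796, 0.557 and 0.973 CPM in the α-amyrin, β-amyrin and vehicle libraries at P6 (15, 14 and 23 counts), against 3.02, 0.804 and 1.96 CPM at P1 (89, 20 and 51 counts). The P1 β-amyrin library lay among the P6 libraries, and the other P1 libraries were higher. The log2 fold change was -1.22 ± 0.31 (SE, edgeR adjusted p = 0.0133, alternatives 0.000565 to 0.102). The call was lost without the P1 α-amyrin library (log2 fold change -0.81, edgeR adjusted p = 0.102) or without the P6 α-amyrin library (-0.81, 0.0862), and by limma on log2(FPKM + 1) (-0.41, adjusted p = 0.0614). Art3, on the opposite strand, overlaps Cxcl10, with 35 counts in all against 212 for Cxcl10. Whether counting used strand is not given, so reads in the overlap may belong to either gene. The summed mesothelial markers were also lower at P6, as Ccl2 and Cxcl10 were, and their part in these results was not tested. Il6 had 0.425, 1.23 and 1.14 CPM at P6 (8, 31 and 27 counts), against 1.05, 0.764 and 1.07 CPM at P1 (31, 19 and 28 counts). The P6 α-amyrin library was the lowest of the 6 and the passages overlapped. The log2 fold change of -0.06 had a 95% interval of -0.98 to 0.85 (edgeR adjusted p = 0.903, alternatives 0.378 to 0.987).

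The receptors for these ligands were set beside them from lists of chemokine and interleukin-6 receptors. Of 18 listed chemokine receptors 11 passed the low-count filter, 8 rose by edgeR and 3 were not called, beside 30.0% of all genes called higher. Of the 11, 4 (Cxcr3, Ccr2, Ccr3 and Ccr10) were under the filter level of 0.396 CPM in every P1 library and had to be higher at P6 to be tested, so the count is given as a description only. Cxcr4, the signalling receptor for the Cxcl12 protein, had 33.7, 32.0 and 37.8 CPM in the α-amyrin, β-amyrin and vehicle libraries at P6, against 1.39, 1.05 and 1.34 CPM at P1. Its log2 fold change was 4.76 ± 0.11 (SE, adjusted p = 9.66e-07 by edgeR). Of 5 listed atypical receptors 3 were tested, and Ackr3, the decoy receptor that clears CXCL12, was the one called. It had 32.0, 30.6 and 32.4 CPM at P6, against 51.8, 42.9 and 40.7 CPM at P1. Its log2 fold change was -0.50 ± 0.08 (SE, adjusted p = 0.00151 by edgeR). In bulk RNA, then, Cxcl12 differed by 1.18-fold, with Cxcr4 higher and Ackr3 lower at P6. Which cells held these RNAs was not tested, and neither CXCL12 protein nor its clearance or signalling was measured. By the distance of centred log2 CPM over the 6 libraries, Cxcr4 was also the tested gene nearest to Cxcl15 (distance 0.60), with Shisa9 next (0.80). Both are dominated by the passage difference.

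Cxcr3, the receptor for CXCL10, had 32, 20 and 31 counts in the α-amyrin, β-amyrin and vehicle libraries at P6, against 1, 0 and 2 counts at P1. Its counts summed over the treatments and scaled for depth were 32.9 times higher at P6. The 95% counting interval of 10.9 to 163 covers counting error only. Like Ccr2, Cxcr3 was under the filter level in every P1 library and had to be higher at P6 to be tested. As a description only, Cxcl10 was lower and Cxcr3 higher at P6. Ccr2, the receptor for CCL2 and CCL7, had 18, 17 and 11 counts at P6, against 0, 0 and 1 count at P1. Cxcr2, the receptor for CXCL1 and CXCL5, had 1 count in all at P6 and 0 at P1. Ccr6, the receptor for CCL20, had 0 counts in all 6 libraries. The RNAs of Cxcl1, Cxcl5 and Ccl20 were thus measured in cultures in which these receptors were at or near 0. Among the receptors of the interleukin-6 family, Il6ra had 29.6, 19.9 and 28.6 CPM at P6, against 11.5, 7.92 and 12.1 CPM at P1. Its log2 fold change was 1.31 ± 0.08 (SE, adjusted p = 2.02e-05 by edgeR). Il6st, which encodes gp130, was abundant at 578 to 713 CPM at P6, against 521 to 678 CPM at P1, and was not called (log2 fold change 0.18, edgeR adjusted p = 0.0528). Cxcr4, Cxcr3, Ccr2 and Il6ra are also expressed by macrophages, whose markers were higher at P6; their part in these differences was not tested.

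**Figure D4:**
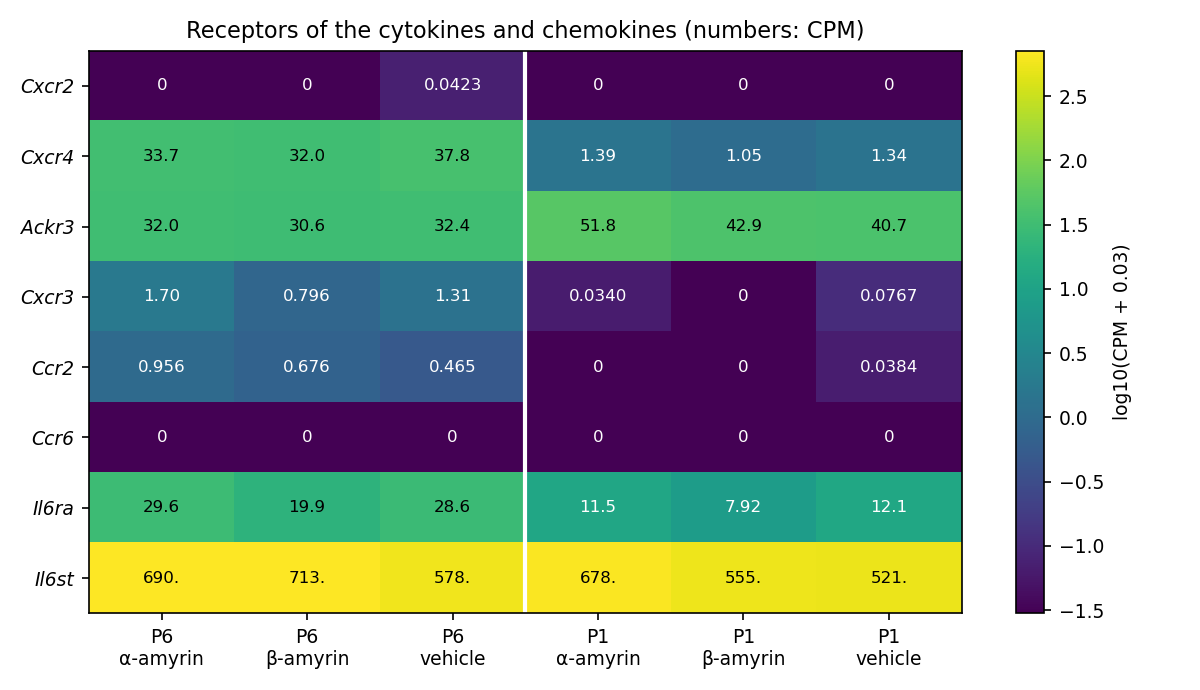
CPM of receptors of ligands among the 10 genes in each library, with P6 left of the white line and P1 right of it. Colour gives log10(CPM + 0.03) and the number in each field the CPM. Cxcr4, Cxcr3, Ccr2 and Il6ra were higher in the P6 libraries, Ackr3 lower, and Cxcr2 and Ccr6 at or near 0 in all 6. Cxcr3 and Ccr2 were under the filter level in every P1 library.

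Other chemokine ligands and the signals upstream of the 10 genes were counted from lists, with edgeR's calls, beside 30.0% of all genes called higher and 29.1% lower. Of 9 other CXC ligands 4 were tested and all 4 rose, with Cxcl16, the ligand of CXCR6, at 3.37 ± 0.18 (SE, log2, adjusted p = 1.55e-05); Cxcl2 was under the filter level in every P1 library. Of 19 other CC, CX3C and XC ligands 9 were tested, 6 rose and 3 were not called; they included Ccl9, Ccl3 and Ccl6, attractants of myeloid cells, at log2 fold changes of 3.25, 3.38 and 2.53. Their medians over the tested genes were 3.01 and 1.497, beside 0.19 for the 10 genes. The first is a description only, because it includes Cxcl2, which had to be higher at P6 to be tested. Of the ligands called higher, Cxcl16, Pf4, Ccl9, Ccl3, Ccl4 and Ccl6 were lowest in the β-amyrin library within P1, as the macrophage markers were. Ppbp, Ccl25 and Ccl28 were instead highest there, and Cxcl2 lay between the others. Ccl9 had 16.4, 1.73 and 15.3 CPM in the α-amyrin, β-amyrin and vehicle libraries at P1, and Ppbp had 3.13, 3.70 and 1.92 CPM. Within P6, Ccl3 was highest with β-amyrin (9.34, 14.6 and 8.21 CPM), where 15 of 20 macrophage markers were lowest. The part of macrophages in these ligands was not tested.

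Of 16 upstream cytokines and receptors 13 were tested, 10 rose and 2 fell. The background for this list and those that follow was again 30.0% of all genes called higher and 29.1% lower. Il1rn, the interleukin-1 receptor antagonist, rose by 1.92 ± 0.07, Tlr4, the endotoxin receptor, rose by 1.43 ± 0.07, and Il1r1, the signalling receptor for interleukin-1, fell by 1.30 ± 0.07 (log2 values with SE; adjusted p by edgeR = 5.20e-06, 1.35e-05 and 1.77e-05). Il1b itself had 8, 0 and 37 counts in the α-amyrin, β-amyrin and vehicle libraries at P6, and 0 in all P1 libraries. Of 12 transcription factors of these promoters 4 rose and 1 fell. The NF-κB subunits Relb and Rela rose by 0.61 ± 0.09 and 0.22 ± 0.05, and Hif1a, the hypoxia factor, fell by 0.17 ± 0.04 (log2 values with SE; adjusted p by edgeR = 0.00137, 0.00902 and 0.0114). Of 12 NF-κB response genes 10 were tested, 6 rose and 2 fell, led by Tnip1, Nfkbie and Zc3h12a at 0.73, 1.37 and 0.69. All 3 encode inhibitors of inflammatory signalling, and Zc3h12a encodes a nuclease known to degrade Il6 mRNA. In the interleukin-6 family, the ligand gene Lif fell by 0.83 ± 0.12 (SE, log2, edgeR adjusted p = 0.000935). Of 10 receptors and signalling genes 3 rose and 4 fell. Those with the smallest adjusted p were Il6ra, Osmr, the oncostatin M receptor, at -0.37 and the kinase gene Jak1 at 0.29 (log2 fold changes). Of 20 other SASP cytokines and growth factors 18 were tested, and 7 rose and 7 fell; Il33 and Areg, among those that fell, were under the filter level in every P6 library and had to be lower there to be tested. The growth factor gene Fgf7 rose by 0.79 ± 0.06, and the cytokine gene Mif fell by 0.87 ± 0.05 (log2 values with SE; adjusted p by edgeR = 4.60e-05 and 1.48e-05).

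The tested genes nearest to each of the others were found by the same distance over the 6 libraries, as a description. The abundant and even genes had very close neighbours: Cxcl12 with Ap2s1 (0.036) and Ehmt2 (0.042), Ccl2 with Mrps28 (0.042) and Mov10 (0.059), and Ccl7 with Prdx2 (0.031) and Smg6 (0.049). Cxcl14 lay nearest to 9230112E08Rik (0.18) and Tgfb2 (0.19), Ccl20 to Lpin3 (0.199) and Ttc9 (0.21), and Cxcl5 to Ccdc138 (0.25) and Osr2 (0.27). For Cxcl1 they were Wdr27 (0.25) and Mill2 (0.34), for Il6 Mir6244 (0.32) and Rnf125 (0.33), and for Cxcl10 1700020G17Rik (0.47). None of the 10 genes had another of the 10 among its nearest pair of genes.

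The second comparison set the amyrins against vehicle over both passages, at the same dose and time. By edgeR none of the 10 genes was called for α-amyrin against vehicle, beside 0.0295% of all genes. At an unadjusted p below 0.05 there were 3 of 10, DESeq2 called 2 (Cxcl14 and Cxcl5) and limma on FPKM called 0. DESeq2 gave no adjusted p for Il6, Ccl20 and Cxcl10 here, nor for Il6 with β-amyrin. Ranges of adjusted p given below for these leave DESeq2 out. For β-amyrin against vehicle none was called by edgeR, DESeq2 or limma, beside 0.00590% of all genes by edgeR, and 2 had an unadjusted p below 0.05. The medians over the 10 genes were 0.13 for α-amyrin and -0.05 for β-amyrin, beside 0.01 and 0.00 over all genes. Both comparisons share the vehicle libraries.

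Cxcl14, among the most abundant of the 10 genes, was lower with α-amyrin than with vehicle in both passages: 162 against 286 CPM at P6 and 133 against 179 CPM at P1. The log2 ratio was -0.82 at P6 (95% counting interval -0.88 to -0.75) and -0.43 at P1 (-0.50 to -0.37). Over both passages it was -0.63 ± 0.10 (SE), which edgeR did not call (adjusted p = 0.0963) and DESeq2 did (adjusted p = 6.40e-06). Alternatives gave adjusted p from 2.45e-06 to 0.553, and 5 of 11 called it. With β-amyrin the log2 ratios to vehicle were -0.40 at P6 and -0.06 at P1, and the estimate over both passages was -0.23 ± 0.10 (SE, edgeR adjusted p = 0.480, alternatives 0.162 to 0.914).

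Cxcl5 was higher with α-amyrin than with vehicle in both passages, at 29.3 against 21.7 CPM at P6 and 33.6 against 15.9 CPM at P1. The log2 ratio was 0.43 at P6 (95% counting interval 0.25 to 0.61) and 1.07 at P1 (0.91 to 1.25). At P1 this met the size rule of at least 2-fold, as 0.330% of all genes did in that pair. No other of the 10 genes met it there, and none did for β-amyrin at P1 (0.613% of all genes), α-amyrin at P6 (0.254%) or β-amyrin at P6 (0.613%). Over both passages the log2 fold change was 0.76 ± 0.15 (SE), not called by edgeR (adjusted p = 0.164) and called by DESeq2 (adjusted p = 0.00516). Alternatives gave adjusted p from 0.000124 to 0.786, and 4 of 11 called it. With β-amyrin Cxcl5 lay between α-amyrin and vehicle in both passages, at log2 ratios to vehicle of 0.19 at P6 and 0.50 at P1, and the estimate was 0.34 ± 0.15 (SE, edgeR adjusted p = 0.501, alternatives 0.242 to 0.996).

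The low-count genes moved less evenly. Ccl20 had log2 ratios of α-amyrin to vehicle of -0.45 at P6 and -1.08 at P1, and an estimate of -0.75 ± 0.29 (SE, edgeR adjusted p = 0.382, alternatives 0.320 to 0.837). Cxcl1 had a log2 ratio of 0.73 in both passages with α-amyrin. With β-amyrin it was 0.95 at P6 and -0.33 at P1, so the passages differed in sign. Neither estimate was called (α-amyrin 0.77 ± 0.34, edgeR adjusted p = 0.450; β-amyrin 0.44 ± 0.35, 0.700). Cxcl10 was lower with β-amyrin than with vehicle, at log2 ratios of -0.72 at P6 and -1.20 at P1. Its estimate was -1.07 ± 0.40 (SE, edgeR adjusted p = 0.460, alternatives 0.205 to 1.00), from 14 against 23 counts at P6 and 20 against 51 counts at P1. Il6 had 8 counts in the P6 α-amyrin library against 27 with vehicle, a log2 ratio of -1.27 (95% counting interval -2.78 to -0.25), and at P1 31 against 28 counts, a log2 ratio of -0.03. The α-amyrin estimate for Il6 was -0.50 ± 0.47 (SE, edgeR adjusted p = 0.742, alternatives 0.656 to 0.948).

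Cxcl12, Ccl2 and Ccl7 had log2 ratios to vehicle between -0.05 and 0.18 with either amyrin in either passage. Their 95% intervals over both passages reached no further than -0.14 to 0.31. Cxcl15, the gene with the widest passage difference, had estimates of 0.19 ± 0.16 with α-amyrin and -0.11 ± 0.16 with β-amyrin (SE, edgeR adjusted p = 0.708 and 0.837). At P6 its level with vehicle was 22.7 CPM and lay between those of the amyrin libraries. At P1, from 33, 21 and 17 counts with α-amyrin, β-amyrin and vehicle, the log2 ratio to vehicle was 0.71 with α-amyrin (95% counting interval -0.10 to 1.72) and 0.34 with β-amyrin (-0.62 to 1.39).

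**Figure D5:**
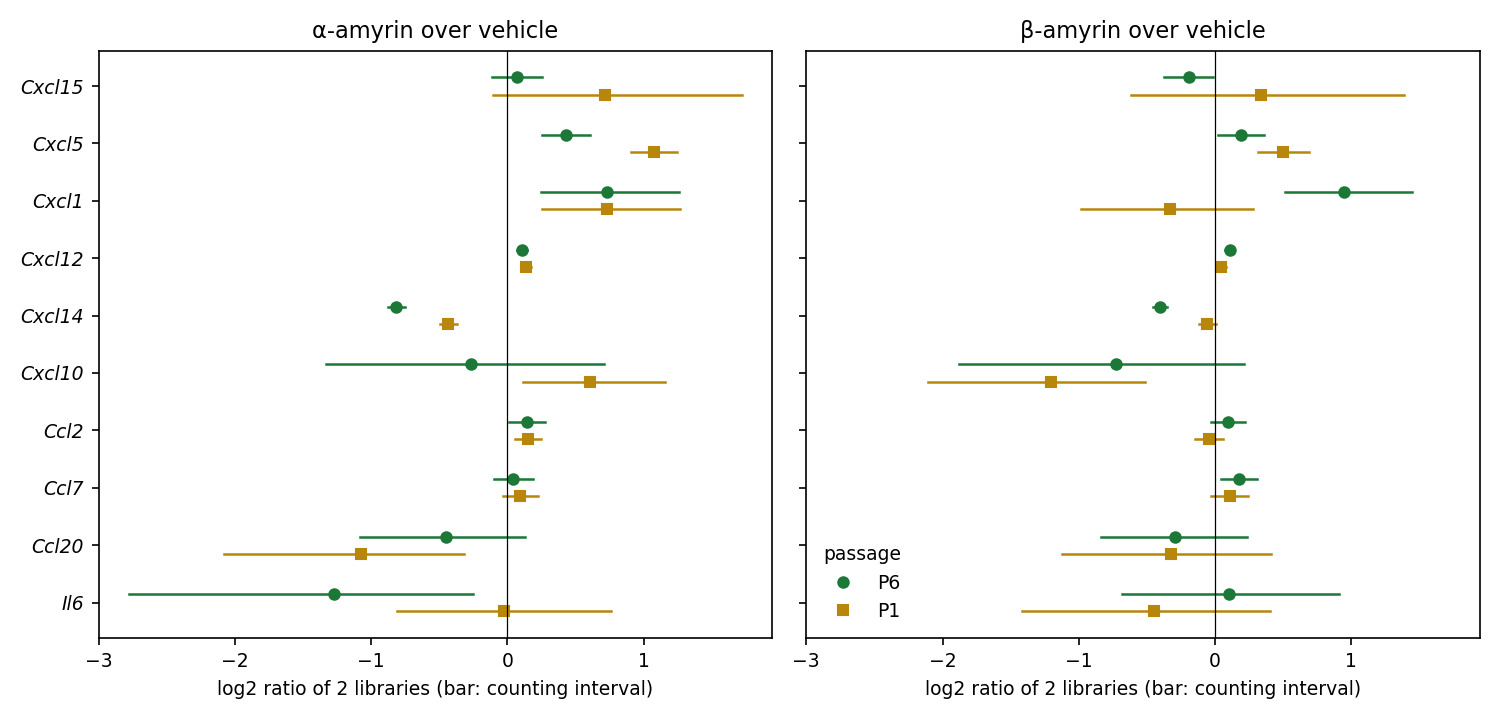
Log2 ratio of CPM of each amyrin library to the vehicle library of the same passage, with 95% counting intervals, which do not cover variation between cultures. Cxcl14 lies left of 0 with α-amyrin in both passages (-0.82 at P6 and -0.43 at P1), and Cxcl5 right of 0 (0.43 at P6 and 1.07 at P1).

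The isomers were then compared with each other at 20 µM and 3 days, as a single pair of compounds. By edgeR none of the 10 genes was called, beside 0.0590% of all genes, and 3 had an unadjusted p below 0.05. DESeq2 called Cxcl14 just under the threshold (adjusted p = 0.0499988), and limma called 0. By the estimate over both passages Cxcl10 differed most, with 0.796 CPM with α-amyrin against 0.557 CPM with β-amyrin at P6 and 3.02 against 0.804 CPM at P1. The estimate of α-amyrin over β-amyrin was 1.41 ± 0.39 on the log2 scale (SE, 95% interval 0.49 to 2.33, edgeR adjusted p = 0.359, alternatives 0.0233 to 0.942), and 0.67 without the P1 α-amyrin library or 0.85 without the P1 β-amyrin library. At P6 alone Il6 differed more, at 8 counts with α-amyrin against 31 with β-amyrin, a log2 ratio of -1.38 (95% counting interval -2.87 to -0.39), while at P1 its log2 ratio was 0.42. Cxcl14 was lower with α-amyrin by a log2 ratio of -0.41 at P6 and -0.38 at P1, and the estimate was -0.39 ± 0.10 (SE, edgeR adjusted p = 0.301, alternatives 0.00182 to 0.766). Cxcl5 was higher with α-amyrin, at log2 ratios of 0.24 at P6 and 0.57 at P1 and an estimate of 0.42 ± 0.14 (SE, edgeR adjusted p = 0.473, alternatives 0.0562 to 0.946). For Cxcl12, Ccl2 and Ccl7 the 95% intervals of the difference ran within -0.24 to 0.29. Macrophage markers also differed between these libraries. At P1 all 20 were lowest with β-amyrin, and at P6 15 of 20 were, while Cd68 (137, 155 and 115 CPM with α-amyrin, β-amyrin and vehicle) and Ctss (177, 218 and 170 CPM) were highest with it. Their part was not tested.

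Whether the amyrins acted differently at P6 and P1 was tested with both isomers as 1 group. None of the 10 genes was called by edgeR, DESeq2 or limma, none had an unadjusted edgeR p below 0.05, and the background was 0 of 16962 genes by edgeR. Among the other chemokine ligands and receptors, 27 of 51 were tested and none was called by edgeR for α-amyrin, for β-amyrin or between the isomers. At an unadjusted p below 0.05 there were 2, 8 and 8, and DESeq2 called 0, 1 (Pf4) and 0.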

How the data were processed

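Poly(A) RNA of 6 MEF libraries was sequenced from a directional kit, per the labels' protocols. The submitters' processing notes name mm10 and FastQC 0.11.7 for read quality, Trimmomatic 0.38 for trimming, HISAT2 2.1.0 for alignment, SAMtools 1.9 and, for counting, featureCounts 1.6.3 (settings, strand included: not given in the sources used here). Read counts per gene, whole and unnormalized, were deposited by the authors together with FPKM values, and the FPKM of a gene was no fixed multiple of its counts. Counts were scaled by TMM to CPM. Genes passing filterByExpr with passage as group were fitted with passage and treatment as additive terms by the quasi-likelihood test of edgeR 4.0.16 (R 4.3.3), and called at a Benjamini-Hochberg adjusted p below 0.05 over 16962 genes. The 2 residual degrees of freedom come from departures from additivity, so a response that differs between passages counts as error; 4.83 prior degrees of freedom were added. The fit was run on simulated data in which a small share of genes changed with passage and none with treatment. The data here had many more passage calls, so that run does not give their error rates. DESeq2 1.42.0, limma 3.58.1 on log2(FPKM + 1), other scalings, no filter, passage alone and leaving out each library were alternatives. Ratios of single libraries used a prior count of 2, and their intervals cover counting error only. Where a symbol had several rows, as with Ccl19, Ccl21a and Ccl27a, the row with most counts was used. All 10 genes were described; from each other list up to 3 tested genes with the smallest adjusted p were named, with the receptors and cluster neighbours of the 10 genes. Some genes that this rule names are not reported here. The genes and lists were chosen with earlier results of these data known.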

Additional observations from a re-analysis of the deposited data

How the results depend on the processing

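The passage calls among the 10 genes numbered 6 in the main fit and 5 to 7 under every alternative run. The compound calls depended on the setting. For α-amyrin against vehicle 0 of the 10 genes were called, against 2 without a low-count filter and 2 by DESeq2 (Cxcl14 and Cxcl5 in both), and 0 to 2 when single libraries were left out. Without the P1 vehicle library Cxcl14 was called, and without either β-amyrin library Cxcl14 and Cxcl5 were. For α-amyrin against β-amyrin 0 were called, against 2 without the filter (Cxcl10 and Cxcl14) and 1 by DESeq2, and 0 to 1 when single libraries were left out (Cxcl14, without the P6 β-amyrin library). Over all genes the counts for α-amyrin against vehicle were 5 by edgeR, 464 without the filter, 194 by DESeq2, 0 by limma and 0 to 367 when single libraries were left out. For β-amyrin against vehicle they were 1, 404, 114, 0 and 0 to 317, for the isomers 10, 484, 119, 0 and 0 to 439, and for the difference of amyrin effects between passages 0, 159, 21, 0 and 0 to 16. The cause was not tested. For passage and the 3 compound comparisons, log2 fold changes of the 10 genes changed sign only when single libraries were left out. Over these fits Il6 ran from -0.48 to 0.38 and Cxcl5 from -0.047 to 0.29 for passage, and Il6 from -1.57 to 0.13 and Cxcl10 from -0.41 to 0.71 for α-amyrin. For β-amyrin Il6 ran from -0.77 to 0.39, Cxcl1 from -0.36 to 0.97, Cxcl15 from -0.22 to 0.44 and Ccl2 from -0.055 to 0.10, and between the isomers Il6 ran from -1.40 to 0.30 and Cxcl1 from -0.22 to 1.10. Of the log2 fold changes of the 10 genes in these 4 comparisons under the alternatives, 418 kept direction and side of the threshold, 14 gained a call, 4 lost one and 14 changed sign. For the difference of amyrin effects between passages, Il6, Cxcl10, Cxcl12, Ccl2, Ccl7 and Ccl20 had values on both sides of 0 under the alternatives, Ccl7 also with total library size or no filter and Cxcl12 also with no filter or by limma. That difference could not be fitted without a vehicle library. No paired analysis was possible because each condition had 1 library and the labels give no replicate numbers. Il6, Cxcl10 and Ccl20 rested on 8 to 89 counts per library.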
